A study of Arabidopsis thaliana with 4 samples.

Results

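Genes of *Arabidopsis thaliana* that act with or against the Polycomb group were examined in the *bli-1* mutant. They were *LHP1* (AT5G17690), *EMF1* (AT5G11530), *RING1A* (AT5G44280), *RING1B* (AT1G03770), *BMI1A* (AT2G30580), *BMI1B* (AT1G06770), *VIN3* (AT5G57380), *VRN5* (AT3G24440), *VRN1* (AT3G18990) and *ULT1* (AT4G28190). These 10 genes were chosen by locus, and the core subunits of Polycomb Repressive Complex 2 (PRC2) were left out. All 10 were found on the array, with 14 of its 43603 gene probes, among 34290 genes and transcripts tested. RefSeq lists *LHP1* as *TFL2*, *BMI1A* as *DRIP2* and *BMI1B* as *DRIP1*. The genes lie on chromosomes 1 (*RING1B*, *BMI1B*), 2 (*BMI1A*), 3 (*VRN5*, *VRN1*), 4 (*ULT1*) and 5 (*LHP1*, *EMF1*, *RING1A*, *VIN3*).

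Polycomb group proteins keep genes silent through marks on histones. PRC2 trimethylates lysine 27 of histone H3 (H3K27me3). PRC1-type proteins read this mark or attach ubiquitin to histone H2A. In *Arabidopsis* they hold flowering, meristem and seed genes off in vegetative seedlings, and Trithorax group proteins work against them. BLISTER (BLI) is a coiled-coil protein that binds the PRC2 methyltransferase CLF, so the question was whether transcripts of the other Polycomb proteins change when *BLI* is disrupted.

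Whole seedlings of Col-0 (the Columbia-0 wild type) and of *bli-1* (SAIL_107_D04, a T-DNA insertion line) were raised in continuous light at 20 °C on MS medium of reduced strength with sucrose and harvested at 12 days (labelled as days after germination). RNA of 2 replicates per genotype was hybridized to single color Agilent arrays, 1 array per replicate. This was the 1 *bli* allele on the arrays. The methods of the study describe delayed germination of *bli* seeds, which were sown earlier in direct comparisons. Whether that was done here is not given in the sources used here, so genotype and a difference in developmental stage cannot be told apart. In RNA of whole seedlings, fewer cells that express a gene and less RNA per cell cannot be told apart either. The replicates are described as biological, with no more detail, and p-values measure the spread between these 4 arrays. In limma, the spread of a gene is also drawn toward that pooled over all features.

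The array of *bli-1* replicate 2 stood apart at the dim end. Its 153 negative control spots had a median intensity of 46.5, against 19 to 20 on the other arrays, and the 25th percentile of its gene spots was 129.5 against 27 to 29. The scanner software marked 91.7% of its gene spots as well above background, against 74.7% to 77.4% on the other arrays. The array of *bli-1* replicate 1 lay on a slide of its own and the other 3 shared 1 slide, so the slide cannot be told apart from what differs between the *bli-1* replicates. Of the *BLI* (AT3G23980) probes, A_84_P831862 read 451 and 380 in Col-0 but 21 and 143.5 in the mutant, where the local background was 17 and 20. The 143.5 came from *bli-1* replicate 2 and was not far above the 25th percentile of gene spots there, 129.5. The other *BLI* probe, A_84_P290714, read 300.0 and 545 in Col-0 against 344 and 532 in *bli-1*. After normalization these probes differed by −2.62 and −0.42 on the log2 scale, and *BLI* as their mean by −1.52 (SE 0.17, limma adjusted p = 0.0833). Where they lie relative to the insertion was not examined. The 4 leaf and 4 root marker genes were well above background on every array, 0 to 2 of 3 shoot meristem markers were, and of 4 seed markers 0 were on 3 arrays and 3 on *bli-1* replicate 2.

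Before any normalization, 9 of the 10 genes were well above background on all 4 arrays by the mark of the scanner software. More spots carried that mark on *bli-1* replicate 2 than on the other arrays. *VRN1*, which encodes a B3 domain protein that binds DNA, had the intensities 1101.5 and 1611 in Col-0 against 1783 and 1551 in *bli-1* for its first probe. *RING1A*, a RING finger protein of PRC1, read 36 and 43 in Col-0 against 50.5 and 130 in *bli-1*, over a local background of 15 to 18. On *bli-1* replicate 2 this was next to the 25th percentile of that array. The exception was *VIN3*, which encodes a PHD finger protein induced by prolonged cold that joins PRC2 at the floral repressor *FLC*. *VIN3* read 23.5 and 24 in Col-0 and 21 in *bli-1* replicate 1, where the negative controls reached up to 54, 24 and 29. In *bli-1* replicate 2 it read 132, likewise next to that percentile. All 14 probes had a higher mean background-subtracted intensity in *bli-1* than in Col-0 at this stage. The median of all gene spots was higher as well, at 208 and 319 in *bli-1* against 139.5 and 187 in Col-0, so the genotypes were compared only after normalization between arrays.

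**Figure D1:**
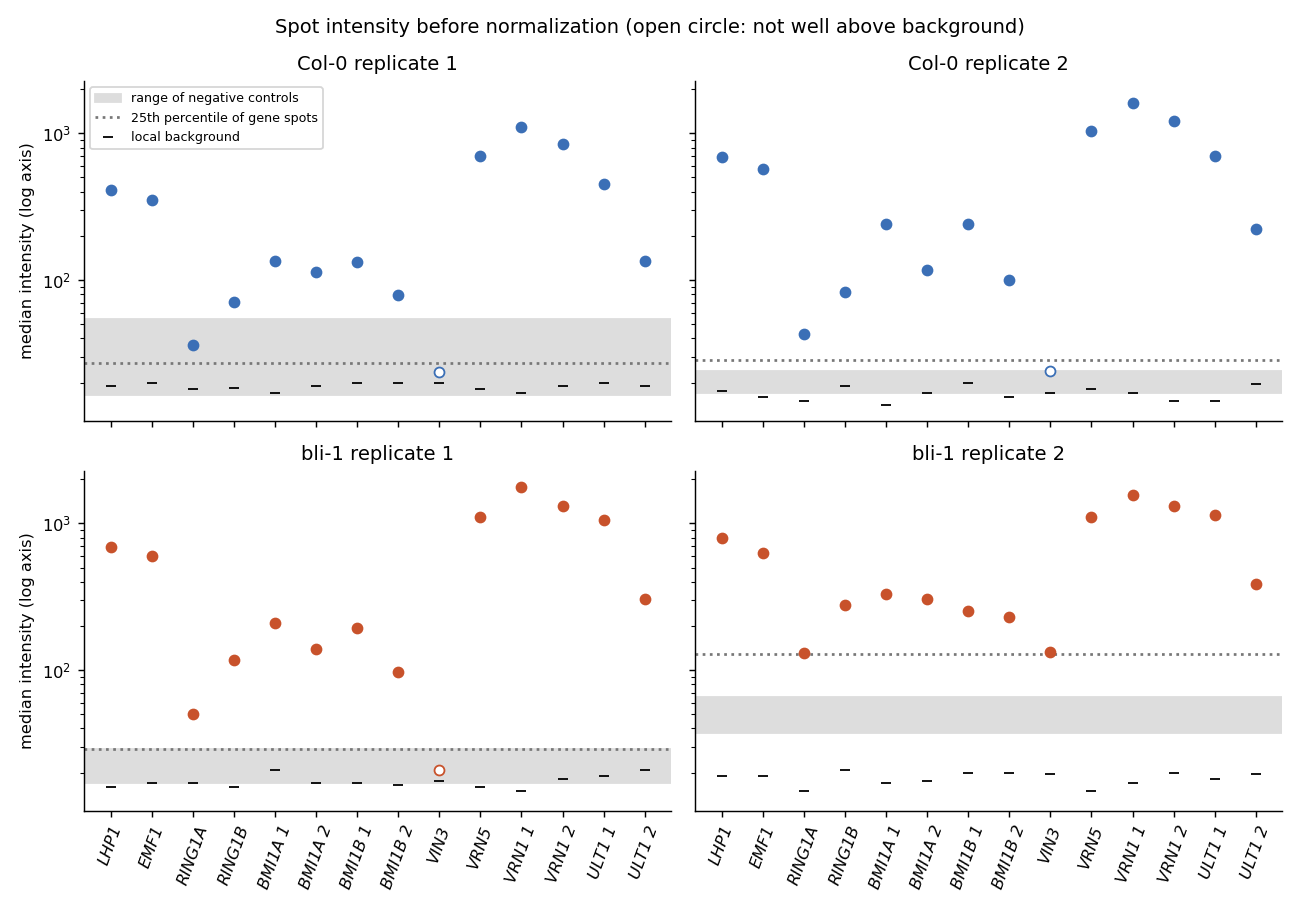
Median pixel intensity (log axis) of the 14 probes on each of the 4 arrays before normalization. Filled circles are spots well above background, open circles are not, dashes are the local background, the grey band is the range of the negative control spots and the dotted line the 25th percentile of gene spots. *VIN3* lies within the negative controls on 3 arrays, and both the band and the dotted line are higher on *bli-1* replicate 2.

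None of the 10 genes was called differentially expressed. The call required an adjusted p below 0.05 (limma, Benjamini-Hochberg over all 34290 features) and at least a 1.5-fold change, and 0.125% of all features met it (0.102% higher and 0.0233% lower in *bli-1*). The count over all features also changed as each array was left out. A single array then stands for 1 genotype, and the own spread of each gene comes from the other pair alone. None of the 10 genes was called in these cases either. With an unadjusted limma p below 0.05 in its place and the 1.5-fold minimum kept, 0 of the 10 passed as well, against 5.19% of all features (2.5% higher, 2.69% lower). None reached 1.5-fold at any p, as 4.79% of all features did upward and 3.39% downward. The smallest adjusted p among them was 0.487 (limma). Over the 10 genes the log2 fold change (*bli-1* minus Col-0, of group means) had a median of −0.06 and ran from −0.18 to 0.36, with 4 above 0 and 6 below. Of all features 49.1% were above 0, with a median of −0.01.

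The replicates of these genes lay close together. The median absolute difference between replicates was 0.06 log2 units in Col-0 and 0.17 in *bli-1*, against 0.11 and 0.23 over all features. In the reported fit, 7 of the 9 genes well above background had a 95% interval of the fold change (limma) within 1.5-fold in both directions. The same held for 43.2% of all features well above background on all arrays, and for 47.1% of all features. The intervals of *RING1B* and *ULT1* reached beyond 1.5-fold higher. These intervals were not counted under other background correction, where standard errors were larger. For *RING1A* the standard error was 0.15 as reported, 0.21 with an offset of 16 and 0.29 with local background subtraction. For *BMI1B* it was 0.14, 0.17 and 0.20. The count therefore does not show that these genes stay within 1.5-fold under other processing. In 2 genes both *bli-1* arrays lay above both Col-0 arrays (*RING1B*, *ULT1*), and in 3 both lay below (*BMI1B*, *VRN5*, *VRN1*). Over all features the shares were 21.2% above and 23% below, 44.1% in all, close to the 5 of 10 seen here. For a single gene, the smallest two-sided p of an exact permutation test over these 4 arrays is 0.333.

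**Figure D2:**
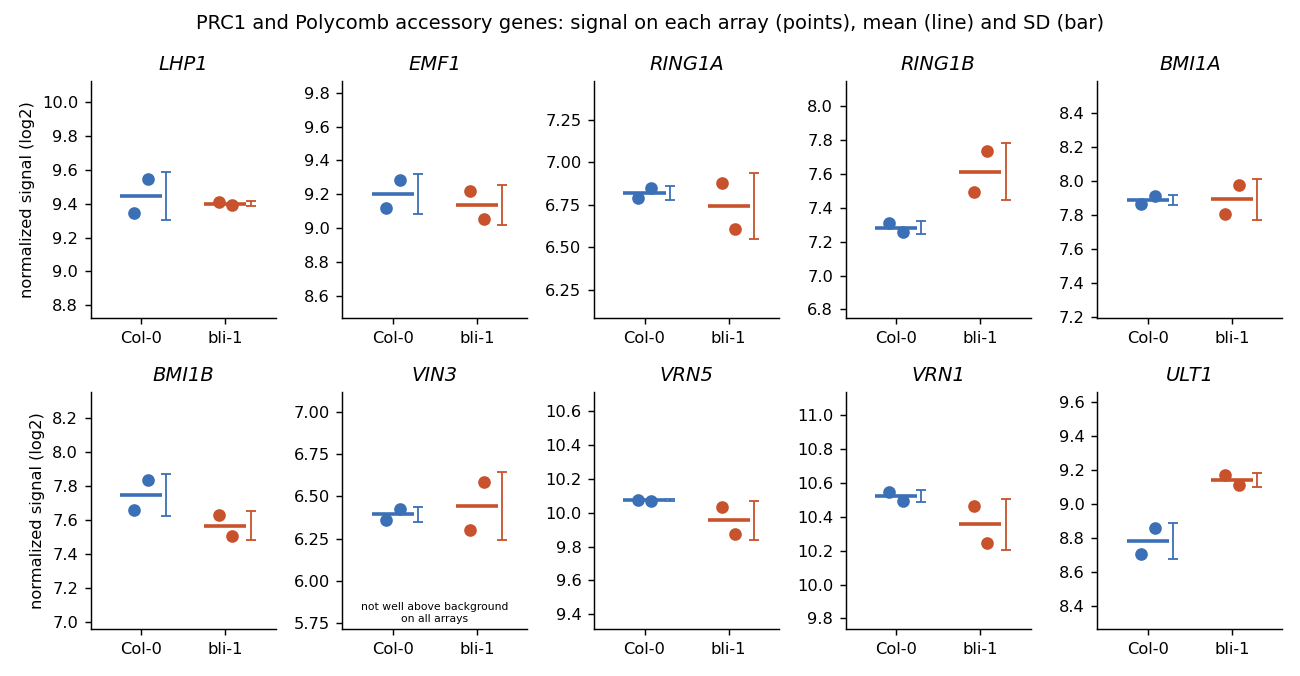
Normalized log2 signal of each gene (mean over its probes) on the 4 arrays, with the mean as a line and the SD as a bar (n = 2 per genotype). Every panel spans the same range of 1.4 log2 units, since levels of different probes are not comparable. *ULT1* and *RING1B* are higher on both *bli-1* arrays, and the other genes overlap or differ by at most 0.18.

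*ULT1* encodes a SAND domain protein of the Trithorax group that opposes Polycomb silencing of floral genes such as *AGAMOUS*. Its normalized log2 signal was 8.71 and 8.86 in Col-0 against 9.17 and 9.12 in *bli-1*. Both *bli-1* arrays were thus above both Col-0 arrays, and the difference exceeded the SD of 0.11 in Col-0 and of 0.04 in *bli-1* (n = 2 each). The fold change was 1.28, with a 95% interval from 1.01 to 1.63 (log2 0.36, standard error (SE) 0.14, limma unadjusted p = 0.0456, limma adjusted p = 0.487). *ULT1* was the 1 member with an unadjusted p below 0.05 at any fold change, which 9.98% of all features reached. That p ran from 0.0367 to 0.306 as each array was left out (limma), and was below 0.05 only without *bli-1* replicate 2. With the slide as a block the log2 fold change was 0.33, and 0.32 on the arrays of the shared slide alone. Both probes went the same way, by 0.43 for A_84_P103846 and 0.29 for A_84_P825327. The summed linear signal of the 3 shoot meristem markers was 266 and 294 in Col-0 against 359 and 325 in *bli-1*. Of these markers 0 and 1 were well above background on the Col-0 arrays, and 2 on each *bli-1* array. *CLV3* was higher on both *bli-1* arrays, while *STM* and *WUS* overlapped between genotypes, and *WUS* was at background throughout. The part of the meristem in the level of *ULT1* was not tested. *ULT2* (AT2G20825), the paralog of *ULT1*, was at a log2 fold change of 0.00 (SE 0.15, limma). It was dim, with log2 signals from 6.40 to 6.68, so this value does not show that *ULT2* was unchanged.

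*RING1A* and *RING1B* encode RING finger proteins that pair with BMI1 proteins to ubiquitinate histone H2A. The log2 signal of *RING1B* was 7.31 and 7.26 in Col-0 against 7.49 and 7.73 in *bli-1*. Its single probe was higher on both *bli-1* arrays, by 1.26-fold with an interval from 0.967 to 1.64 (log2 0.33, SE 0.15, limma adjusted p = 0.564). *RING1A* gave 6.79 and 6.85 in Col-0 against 6.88 and 6.60 in *bli-1*, where the arrays of Col-0 lay between those of *bli-1*. Its fold change was 0.949, with an interval from 0.721 to 1.25. The difference between the paralogs within an array, *RING1B* minus *RING1A*, was 0.52 and 0.41 log2 units in Col-0 against 0.61 and 1.13 in *bli-1*. It was larger on both *bli-1* arrays, by 0.41 on average, with an exact permutation p of 0.333, the smallest that 4 arrays allow. That increase was 0.17 without *bli-1* replicate 2, whose dim end stood apart, and 0.61 without *bli-1* replicate 1. Both genes have dim probes whose values depended on the normalization. With the signal processed by the scanner software and scaled to the 75th percentile, the log2 fold changes were 0.90 for *RING1A* and 0.86 for *RING1B* (adjusted p = 0.782 for both, limma) and *RING1B* minus *RING1A* changed by −0.044, while the median of all features moved to 0.27.

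*BMI1A* and *BMI1B* are the partners of the RING1 proteins, and as DRIP proteins they are also ubiquitin ligases for the drought-response factor DREB2A. *BMI1A* stood at 7.87 and 7.91 in Col-0 against 7.81 and 7.98 in *bli-1*. The Col-0 arrays lay between the *bli-1* arrays, and the log2 fold change was 0.00 with an interval from −0.35 to 0.36 (limma). Its probes pointed in opposite directions, by −0.11 and 0.12. *BMI1B* had a log2 signal of 7.66 and 7.83 in Col-0 against 7.63 and 7.51 in *bli-1*. Its log2 fold change was the most negative among the 10 genes, at −0.18 (SE 0.14, limma adjusted p = 0.661), with −0.33 for 1 probe and −0.03 for the other. The difference *BMI1B* minus *BMI1A* ran from −0.20 to −0.08 in Col-0 and from −0.47 to −0.18 in *bli-1*, which overlap (exact permutation p = 0.667). Its change was −0.18 on average and −0.043 without *bli-1* replicate 2. Probe sequences were not used here, and cross-hybridization between paralogs was not examined.

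*LHP1* encodes the chromodomain protein that binds H3K27me3, and *EMF1* a plant-specific protein needed to keep floral genes silent in seedlings. The log2 signal of *LHP1* was 9.35 and 9.55 in Col-0 against 9.41 and 9.39 in *bli-1*. Both *bli-1* arrays fell between those of Col-0, and the fold change was 0.968 with an interval from 0.753 to 1.25. *EMF1* gave 9.12 and 9.29 in Col-0 against 9.22 and 9.05 in *bli-1*, so that the genotypes overlapped. Its fold change was 0.955, with an interval from 0.736 to 1.24 (limma for both).

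*VRN5*, *VRN1* and *VIN3* act in vernalization, the lasting silencing of *FLC* after cold, and the seedlings here had been grown at 20 °C after seed stratification. *VRN5*, a PHD finger protein related to VIN3, had a log2 signal of 10.08 and 10.07 in Col-0 against 10.03 and 9.87 in *bli-1*. It was lower on both *bli-1* arrays, by 0.921-fold with an interval from 0.723 to 1.17. *VRN1* was at 10.55 and 10.50 in Col-0 against 10.46 and 10.25 in *bli-1*. Both *bli-1* arrays were again lower, the fold change was 0.891 with an interval from 0.690 to 1.15, and the 2 probes gave −0.19 and −0.14. Neither passed (adjusted p = 0.744 for *VRN5* and 0.679 for *VRN1*, limma). *VIN3* had a normalized log2 signal of 6.36 and 6.42 in Col-0 against 6.30 and 6.58 in *bli-1*, and only the array of *bli-1* replicate 2 had it well above background. The genotypes overlapped (limma adjusted p = 0.909). Its fitted value entered the counts, the median and the plots of the 10 genes, but no direction is drawn from it. Without *VIN3*, 3 of 9 genes were above 0 and 6 below, with a median of −0.07.

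**Figure D3:**
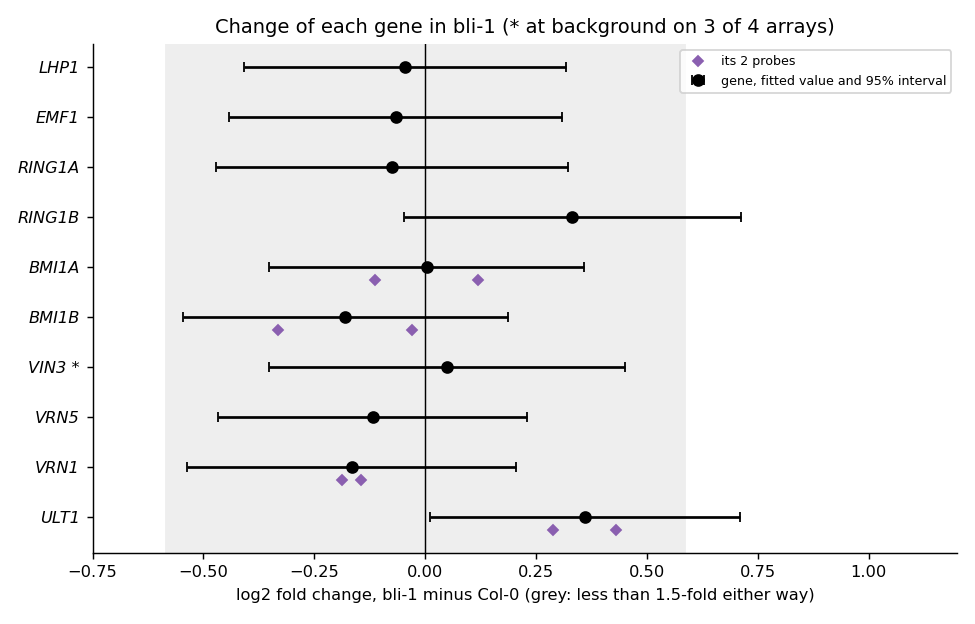
Log2 fold change of each gene in *bli-1* against Col-0 with its 95% interval from limma, and the values of single probes (diamonds) where a gene has 2. The grey zone is a change of less than 1.5-fold. Only the intervals of *RING1B* and *ULT1* leave it, and only that of *ULT1* excludes 0. *VIN3* was not well above background on 3 of the 4 arrays.

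The direction was the same under all 15 alternatives, among them each array left out in turn, for *ULT1* (0.29 to 0.43), *RING1B* (0.24 to 0.86), *BMI1B* (−0.33 to −0.02), *VRN5* (−0.24 to −0.04) and *VRN1* (−0.27 to −0.06). It turned under at least 1 alternative for *LHP1*, *EMF1*, *RING1A*, *BMI1A* and *VIN3*, whose reported values all lay within 0.08 of 0. Not every alternative could turn a sign. The eBayes options and the replicate block leave the fold change of these genes as it was. So does leaving out dim probes, for the genes it keeps, and taking the brightest probe, for genes with 1 probe such as *RING1B* and *VRN5*. Keeping outlier spots barely moved the values. The slide block compares the same 3 arrays as leaving out *bli-1* replicate 1. None of the 10 was called in any alternative. *RING1B* came nearest with the slide as a block, where its log2 fold change was 0.45 (limma adjusted p = 0.0438), below the minimum fold change, while 16.7% of all features were called. Without *bli-1* replicate 1, which leaves the 3 arrays of 1 slide, *RING1B* was at 0.41 (limma adjusted p = 0.0686). Its adjusted p was 0.0686 or higher in the other 14 alternatives (limma).

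**Figure D4:**
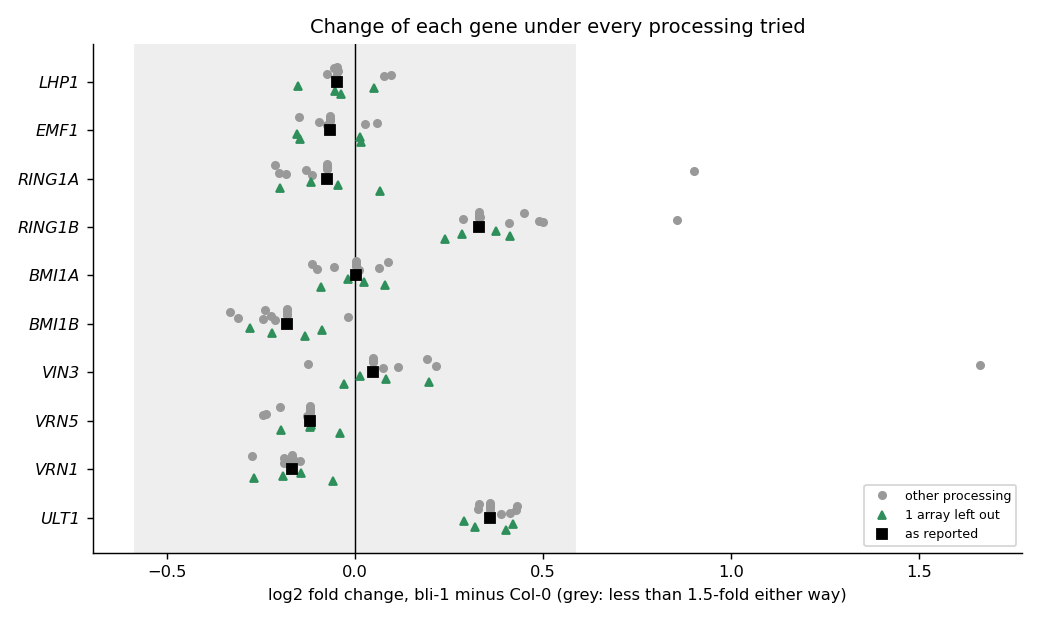
Log2 fold change of each gene as reported (black squares), under other processing (grey circles) and with 1 array left out (green triangles). *ULT1* and *RING1B* stay above 0 throughout. The points right of the grey zone, for *RING1A*, *RING1B* and *VIN3*, all come from 75th percentile scaling of the scanner software's processed signal.

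Other genes of the pathway were counted in the same fit. Over all features limma called 0.125%, and 5.19% passed an unadjusted p below 0.05 at 1.5-fold. Of 8 PRC2 core genes, limma called 0, and 0 passed the unadjusted threshold. The median log2 fold change was 0.06, and 0.03 over the 6 well above background on all arrays, which ran from −0.12 for *CLF* to 0.11 for *VRN2*. *MEA* (0.74) and *FIS2* (0.49) lay outside that range but were not well above background on all arrays, so no direction is drawn from them. Of 14 genes for proteins associated with Polycomb, such as BMI1C, the VAL repressors and the H2A deubiquitinases UBP12 and UBP13, 0 were called and 1 passed the unadjusted threshold, with a median of −0.01. That gene was *SHL* (AT4G39100), which encodes a reader of histone marks. Its log2 signal was 9.57 and 9.88 in Col-0 against 9.13 and 8.84 in *bli-1*, lower on both *bli-1* arrays by 0.73 (SE 0.18, limma adjusted p = 0.298). Among the genes of that list well above background on all arrays, *VAL1* was the highest at 0.13. Of 9 Trithorax group and H3K27 demethylase genes 0 passed either threshold, with a median of −0.07 and values from −0.20 for *REF6*, a demethylase, to 0.24 for *ATX2*, a methyltransferase.

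A list of 18 target genes of these proteins spread more widely than the regulators. limma called 0 of them. At the unadjusted threshold 2 were higher (*SEP3*, *PI*) and 2 lower (*MAF4*, *MAF5*), against 2.5% and 2.69% of all features. The list was chosen with earlier results of these data known, so its wider spread is not an independent result. The median was 0.19, or 0.33 over the 10 genes well above background on all arrays. *SEP3*, a MADS-box gene of flower development, was the highest at 1.62 (SE 0.17, limma adjusted p = 0.0801). *MAF4* (AT5G65070), a floral repressor related to *FLC*, was the lowest at −1.09 (SE 0.20, limma adjusted p = 0.19). It stood at 8.54 and 8.74 in Col-0 against 7.32 and 7.78 in *bli-1*. The difference between the targets and the regulators was not tested.

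**Figure D5:**
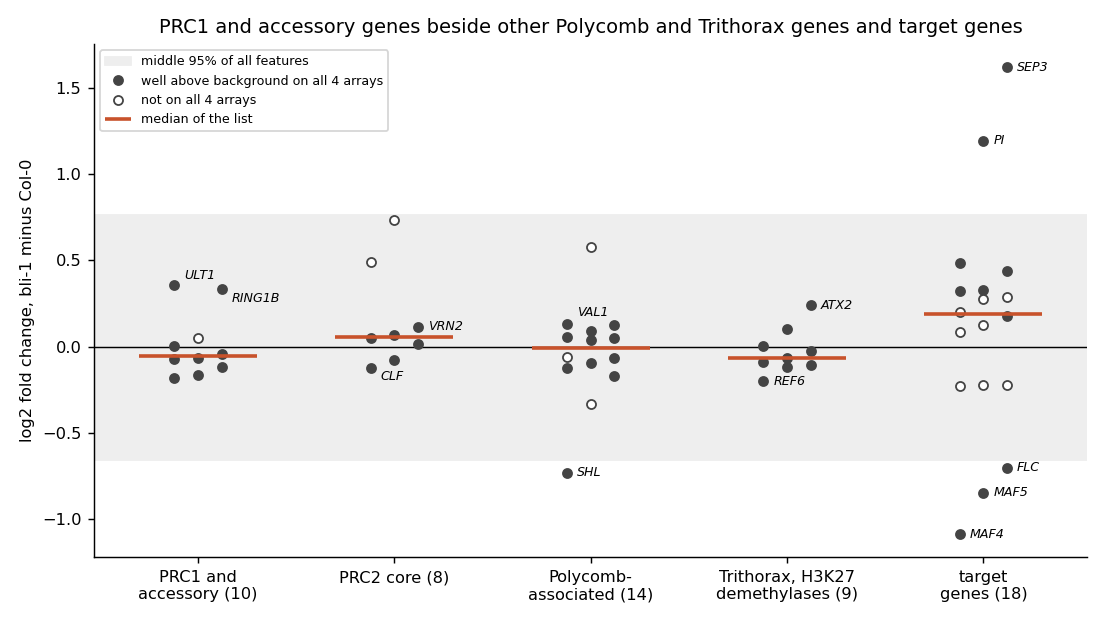
Log2 fold change in *bli-1* of the 10 genes and of 4 other lists, with 1 point per gene (filled where well above background on all 4 arrays), the median of each list as a line and the middle 95% of all features in grey. The 10 genes all lie inside the grey zone, while *SEP3*, *PI*, *MAF4*, *MAF5*, *FLC* and *SHL* lie outside it.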

How the data were processed

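Per the labels, RNA was labelled with Cy3 and hybridized to Agilent *Arabidopsis* 44 k arrays, 1 per replicate. The authors deposited spot intensities as read by Feature Extraction 11.0.1.1, not normalized between arrays. The median intensity of each spot and of its local background was corrected here with normexp (offset 50) in limma 3.58.1 (R 4.3.3), control spots and outlier spots (4 to 19 per array) were left out, and quantile normalization gave log2 values. The methods of the study name background correction and quantile normalization, while the kind of correction and the offset were chosen here. Of 35703 spots with a RefSeq accession, 34432 matched a locus of the RefSeq table. Probes of a gene were averaged. Genotypes were compared with lmFit and eBayes, without other terms, and Benjamini-Hochberg adjustment over 34290 features. The fit was tested on simulated data.

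Named genes were all members, *BLI*, and the highest and lowest gene well above background of each list. *MAF5*, *PI*, *FLC*, *ULT2*, *DOG1*, *MEA*, *FIS2*, the shoot meristem markers and the seed regulators were named after their values were seen. The members and lists were chosen with earlier results of these data known. Alternatives covered background correction, scaling, dim and outlier spots, choice of probe, eBayes options, slide, replicate number and each array left out. No sequence was used here.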

Additional observations from a re-analysis of the deposited data

How the results depend on the processing

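The count of called members was 0 of 10 (0 of 9 with dim probes left out) under every alternative, at an adjusted or an unadjusted p with the 1.5-fold minimum kept. Without that minimum, adjusted p alone gave 0 in the reported fit, and *RING1B* passed it with the slide as a block. The count over all features was 43 as reported and 12 with an offset of 16. It was 0 with local background subtraction, with the scanner software's processed signal under quantile or 75th percentile scaling, and with 75th percentile scaling after normexp. It was 136 with dim probes left out, 128 with trend and robust options, 5728 with the slide as a block, and 0 to 5208 with each array left out. The cause was not tested, except that fewer features and arrays enter by construction. Replicate numbers are not paired by the labels, and the deviations of same-numbered arrays correlated at 0.07 across features. The replicate block left 2 features and 0 members called.

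The median over the members was −0.06, and −0.12 to 0.02 with each array left out. It was 0.081 with the processed signal at the 75th percentile, where the median of all features was 0.27 and the members’ median minus that was −0.19. There, 1374 features were higher and 619 lower at an unadjusted p, against 856 and 922 as reported. The sign turned with the processed signal under quantile and 75th percentile scaling for *LHP1* (0.077 and 0.10) and *EMF1* (0.028 and 0.059), and under the second for *RING1A* (0.90). For *BMI1A* it turned with the processed signal under quantile normalization (−0.10), after normexp with 75th percentile scaling (−0.055) and with its brightest probe (−0.11), and for *VIN3* with 75th percentile scaling after normexp (−0.12). With each array left out the values ran from −0.15 to 0.052 for *LHP1*, −0.15 to 0.017 for *EMF1*, −0.20 to 0.068 for *RING1A*, −0.090 to 0.079 for *BMI1A* and −0.029 to 0.20 for *VIN3*. The change of *RING1B* minus *RING1A* turned from 0.41 to −0.044 with the processed signal at the 75th percentile, a check added after seeing the data. Dim probes limit *RING1A*, *RING1B* and *VIN3*, and the number of arrays limits every value.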

Other observations

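The master regulators of seed maturation, which are kept silent by PRC1 in seedlings, were at or near background. *LEC1* was well above background on 0 of the 4 arrays, with log2 signals of 6.50 and 6.42 in Col-0 against 6.39 and 6.08 in *bli-1*. *LEC2* was well above background on 1 array of each genotype, *FUS3* on 1 Col-0 array and *ABI3* on 1 *bli-1* array, and none of the 4 is given a fold change. *DOG1*, a dormancy gene well above background on all 4 arrays, had log2 signals of 6.90 and 7.01 in Col-0 against 7.33 and 7.44 in *bli-1*. It was higher on both *bli-1* arrays by 0.44 (standard error 0.14, limma adjusted p = 0.393), below the minimum of 1.5-fold.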
